A study of Mus musculus with 2 samples.

Results

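The genes described here are Prps1 and the enzymes that build purine nucleotides from ribose 5-phosphate, 10 symbols in all, selected on earlier results of these same 2 arrays, in which Prps1 had one of the lowest log2 differences between the treatments. A gene was represented by its brightest probe set among those with exactly 1 symbol in the platform annotation, and 8 of the 10 were measured in this way, out of 22180 genes. Pfas was covered by 1 probe set, which also names the microRNA gene Mir3062, and no probe set was named Impdh2. The cells were M210B4, an established mouse bone marrow stromal line that is used to support blood-forming cells in culture. One culture was exposed to a CD84-activating antibody (anti-CD84, clone 152-1D5) and one to an IgG1 isotype antibody, each for 24 h in medium with 2% FCS. CD84 is a self-binding surface receptor of the SLAM family. RNA of each culture was hybridised to 1 array (Affymetrix Mouse Gene 2.0 ST), so a difference below is one between 2 arrays, with no replicate, no standard error and no p-value. Differences are on the log2 scale, with IgG1 subtracted from anti-CD84.

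Cells make purines either from small precursors or by salvage of existing bases. Both the new synthesis and the salvage of bases use phosphoribosyl pyrophosphate (PRPP), the activated ribose that PRPP synthetases make from ribose 5-phosphate and ATP. In the new synthesis a purine ring is assembled on PRPP until inosine monophosphate (IMP) is reached, and IMP is then turned into AMP or GMP. The route feeds RNA, DNA and energy metabolism and is used heavily by dividing cells.

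On these 2 arrays Prps1 was 3.63-fold lower after anti-CD84, while its sister isozyme Prps2 was 1.09-fold higher. Paics, an enzyme of the middle of the route, was 1.52-fold higher, and all measured genes but Prps1 and Paics, 6 in number, lay within 1.5-fold. Of the 8 genes 1 was therefore at least 1.5-fold lower and 1 at least 1.5-fold higher. Among the 13284 genes detected on at least 1 array, 6.4% were that much lower and 10.7% that much higher. For the 8 genes as a set these counts are near the background. The 1 lower gene is Prps1, which was chosen for its difference, so the lower count follows from that choice. The detection level was a log2 value of 4.84, the 95th percentile of 1394 olfactory and vomeronasal receptor genes, and all 8 genes lay above it on both arrays. The median difference of the 8 genes was 0.11, against 0.09 for all detected genes.

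The 250 bases before the transcription start are shown for Prps1 and Paics, since these are the 2 genes past 1.5-fold and they differ in opposite directions. The sequences are RefSeq's for GRCm38.p6, both on the plus strand, from chrX:140456353-140456602 for Prps1 and chr5:76951052-76951301 for Paics. Capitals mark the E-box CACGTG, the motif of MYC and its relatives, the CCAAT box and the GC box GGGCGG, each searched on both strands, with no overlap among the matches shown.
Prps1: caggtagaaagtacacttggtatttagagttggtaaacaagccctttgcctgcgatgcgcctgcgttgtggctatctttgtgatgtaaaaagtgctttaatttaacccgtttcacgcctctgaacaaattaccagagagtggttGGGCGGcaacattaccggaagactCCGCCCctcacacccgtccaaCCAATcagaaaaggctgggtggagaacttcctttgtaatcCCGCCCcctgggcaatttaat
Paics: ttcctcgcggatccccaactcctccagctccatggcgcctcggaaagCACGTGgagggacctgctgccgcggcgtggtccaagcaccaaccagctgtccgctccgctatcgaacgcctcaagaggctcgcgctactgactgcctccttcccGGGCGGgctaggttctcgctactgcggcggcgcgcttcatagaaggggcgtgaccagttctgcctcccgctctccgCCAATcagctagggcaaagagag
The Prps1 window held 3 GC boxes, 1 CCAAT box and 0 E-boxes, and the Paics window held 1 of each motif. RefSeq windows were found for 9 of the 10 listed genes. Of these 9, Atic, Impdh2 and Paics held an E-box, a motif found in 6.02% of all 32851 promoter windows of that length. A CCAAT box was present for 4 of the 9 genes and in 33.8% of all windows, and a GC box for 8 of the 9 and in 32.7% of all windows. The Prps2 window held none of the 3 motifs, but it lies partly inside the gene as RefSeq outlines it, so it belongs to a start other than the outermost one. An Impdh1 window, chr6:29212298-29212547, likewise lies inside Impdh1. The Paics window lies inside the outline of Ppat, which is on the opposite strand. A match of letters describes the window and does not show that a factor binds there.

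The PRPP synthetases come first in the route. Prps1, which encodes the widely expressed PRPP synthetase and lies on the X chromosome (GRCm38.p6, chrX:140456603-140476140, gene ID 19139), had a log2 value of 7.04 in anti-CD84 cells and 8.90 in IgG1 cells. That is a difference of -1.86, which leaves 27.6% of the IgG1 value on the linear scale, and in RNA of a whole culture less Prps1 RNA per cell and fewer cells that carry it cannot be told apart. Both values were far above the detection level, so the size does not rest on a dim array. Prps1 was measured by 1 probe set only, and no further probe set checks it.

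**Figure D1:**
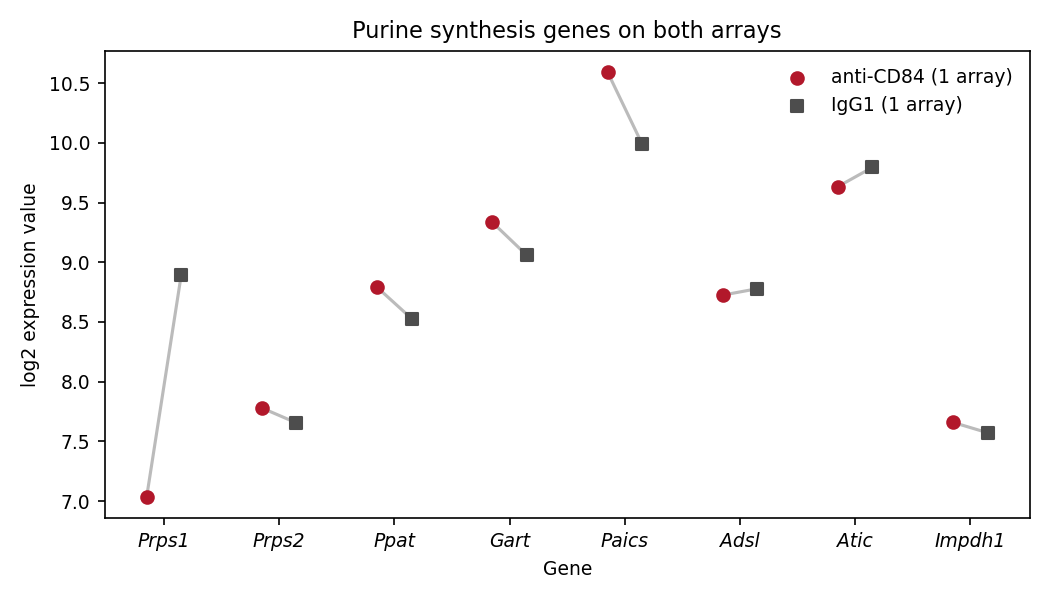
The log2 expression values of the 8 measured purine synthesis genes, with anti-CD84 as a red circle and IgG1 as a grey square, 1 array each, so there are no error bars. Prps1 is the gene with the longest line, at 7.04 after anti-CD84 and 8.90 after IgG1, and Paics has the largest step upward over its IgG1 value. Heights of different genes are not comparable, since each probe set has its own brightness.

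The Prps1 difference was among the lowest of the arrays, which is a description, because the gene was chosen for it. Of 11761 genes above the detection level on both arrays, 4 were lower still. Of the 13284 detected genes, 0.173% were at least 3-fold lower. Among the 4542 genes with a mean log2 value from 7 to 9, the range that holds Prps1, the differences had a standard deviation of 0.37 over genes, 2.93% of them were at least 1.5-fold lower, and 3 were as low as Prps1, counting Prps1 itself. The other 2 were Olfr1454, at 6.19 in anti-CD84 cells and 9.48 in IgG1 cells, and the predicted gene Gm8894, at 7.84 in anti-CD84 cells and 9.99 in IgG1 cells. Olfr1454 is itself one of the olfactory receptor genes from which the detection level was taken. The gene just above Prps1 in that range was Wasf1, an organiser of actin polymerisation, at 6.23 in anti-CD84 cells and 8.06 in IgG1 cells. These genes were looked up after their values were seen.

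Prps2, the isozyme that is also X-linked, was at 7.78 in anti-CD84 cells and 7.65 in IgG1 cells, a difference of 0.13. The Prps1 difference minus the Prps2 difference was -1.98 on the log2 scale, and only Prps1 of the isozymes was past 1.5-fold. Prpsap1, a regulatory protein found in complex with the synthetases, was at 8.81 in anti-CD84 cells and 8.68 in IgG1 cells, and Prpsap2, its relative, at 6.76 in anti-CD84 cells and 6.43 in IgG1 cells. Both were higher by less than 1.5-fold (differences of 0.14 and 0.33). Prps1l1, a copy expressed in testis, reached the detection level on neither array, at 3.74 in anti-CD84 cells and 3.91 in IgG1 cells. The probe set of Prps1l3 also names Mipol1 and was at 7.44 in anti-CD84 cells and 7.39 in IgG1 cells. Of the 4 detected genes of this family 1 was past 1.5-fold, Prps1, which was chosen for its difference. Of all detected genes 10.7% were at least 1.5-fold higher and 6.4% lower.

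**Figure D2:**
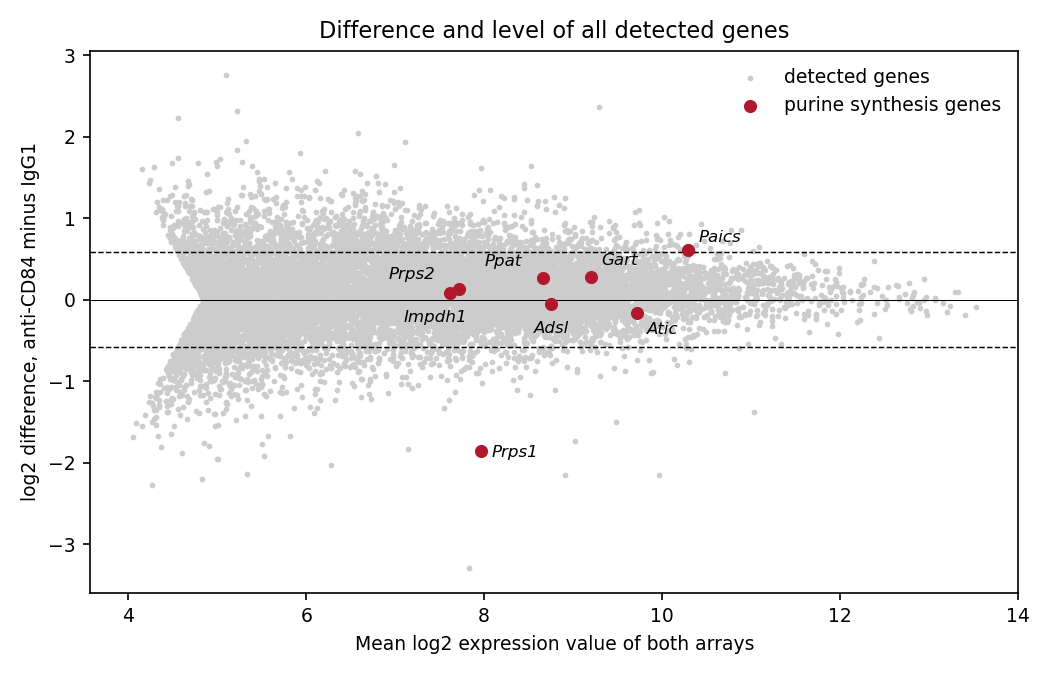
The log2 difference (anti-CD84 minus IgG1) of each of the 13284 detected genes against its mean log2 value over both arrays, with the 8 purine synthesis genes in red and dashed lines at 1.5-fold. Prps1 stands well below the cloud at -1.86, Paics touches the upper line at 0.60, and the other 6 lie inside the cloud between -0.16 and 0.28.

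The enzymes that assemble the ring on PRPP did not share the Prps1 difference. Ppat, the amidotransferase that takes the committed step and consumes PRPP, was at 8.79 in anti-CD84 cells and 8.53 in IgG1 cells, 1.20-fold higher. Gart, whose protein carries several of the following activities, was at 9.34 in anti-CD84 cells and 9.06 in IgG1 cells, 1.21-fold higher. Gart had 3 probe sets, and they disagreed. The brightest, used here, differed by 0.28, the second, at 5.15 in anti-CD84 cells and 5.44 in IgG1 cells, differed by -0.30, and the third was not detected. The mean over the 3 probe sets gave a Gart difference of -0.02, so its direction depends on the probe set. The probe set shared by Pfas, the enzyme that adds a glutamine nitrogen, and Mir3062 was at 6.85 in anti-CD84 cells and 6.87 in IgG1 cells.

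Paics, a bifunctional carboxylase and ligase of the route (GRCm38.p6, chr5:76951302-76967509, gene ID 67054), was at 10.59 in anti-CD84 cells and 9.99 in IgG1 cells, a difference of 0.60. Of the genes with a mean log2 value of 9 or more, the range that holds Paics, 4.76% were at least 1.5-fold higher. When the median of all detected genes was subtracted, Paics was at 0.52, under the 1.5-fold line, so its place among the higher genes depended on the scaling. On that centred scale 0 of the 8 genes were at least 1.5-fold higher and 1, Prps1, lower, against 7.71% and 8.49% of all detected genes. Paics and Ppat lie head to head on chromosome 5, with 277 bases of overlap in the RefSeq gene table, and both were higher in anti-CD84 cells, by 0.60 and 0.26. Gart and Son, an RNA splicing gene, lie 851 bases apart on chromosome 16, and Son was at 9.62 in anti-CD84 cells and 9.31 in IgG1 cells, a difference of 0.30 beside the 0.28 of Gart.

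The last enzymes on the way to IMP had small negative differences. Adsl, the lyase that acts both here and in the AMP branch, was at 8.73 in anti-CD84 cells and 8.78 in IgG1 cells, a difference of -0.05. Atic, which closes the ring to give IMP, was at 9.63 in anti-CD84 cells and 9.80 in IgG1 cells, a difference of -0.16. Of the detected genes 88.8% had an absolute difference at least as large as that of Adsl, and 68.1% at least as large as that of Atic.

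The branches from IMP were likewise close between the arrays, with 1 exception. Impdh1, a dehydrogenase at the entry to the GMP branch, was at 7.66 in anti-CD84 cells and 7.57 in IgG1 cells. Its difference of 0.09 turned to -0.01 after quantile normalization and to -0.04 after a loess correction, so it has no settled direction. Gmps, which completes GMP, was at 9.75 in anti-CD84 cells and 9.61 in IgG1 cells, and Adss2, the main enzyme of the AMP branch outside muscle, at 10.46 in anti-CD84 cells and 10.21 in IgG1 cells. Adss1, the muscle form, was the exception, at 5.89 in anti-CD84 cells and 5.23 in IgG1 cells, 1.58-fold higher and not far above the detection level. With the difference centred, 0 of the 5 detected branch genes were past 1.5-fold, beside 7.71% of all detected genes higher and 8.49% lower. Gmpr, Gmpr2 and Impdh2 were not measured by a single-symbol probe set.

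Purine salvage, in which the phosphoribosyltransferases also consume PRPP, had 0 of 8 detected genes past 1.5-fold in either direction, with a median difference of 0.04. The largest differences belonged to Dguok, the mitochondrial deoxyguanosine kinase, at 7.29 in anti-CD84 cells and 6.97 in IgG1 cells, and Dck, the cytosolic deoxycytidine kinase, at 7.18 in anti-CD84 cells and 6.86 in IgG1 cells. The pentose phosphate pathway, which supplies ribose 5-phosphate, had 0 of 11 detected genes past 1.5-fold and a median of -0.01. In it Pgm2, a phosphopentomutase, differed by 0.45 and Tigar, a fructose bisphosphatase that diverts sugar into this pathway, by -0.34. Of all detected genes 10.7% were at least 1.5-fold higher and 6.4% lower, and at those shares lists this short would hold few such genes.

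Purine breakdown and nucleotidases had the highest share of genes past 1.5-fold among the 15 pathway lists. Of its 13 detected genes 5 were at least 1.5-fold higher (38.5%, against 10.7% of all detected genes), 0 were lower, and the median was 0.49. The 5 were also past 1.5-fold with the difference centred. Nt5c3, a nucleotidase that acts on pyrimidine rather than purine nucleotides, was at 6.92 in anti-CD84 cells and 5.93 in IgG1 cells, 1.99-fold higher. Ampd3, an AMP deaminase, was at 9.89 in anti-CD84 cells and 9.02 in IgG1 cells, 1.83-fold higher, and Nudt16, a hydrolase of inosine diphosphate, at 6.86 in anti-CD84 cells and 6.01 in IgG1 cells, a difference of 0.85. The remaining 2 were Acp3, a phosphatase that can cleave extracellular AMP, and Gda, the guanine deaminase, with differences of 0.79 and 0.77. Xdh, which makes uric acid, differed by 0.24, and Ampd2, the other AMP deaminase detected, by -0.50. The other 8 detected genes of the list lay within 1.5-fold. All 15 lists were chosen with earlier results of these data known, and this one is singled out by the same values. With 1 array per group these counts describe 2 arrays and no test stands behind them.

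**Figure D3:**
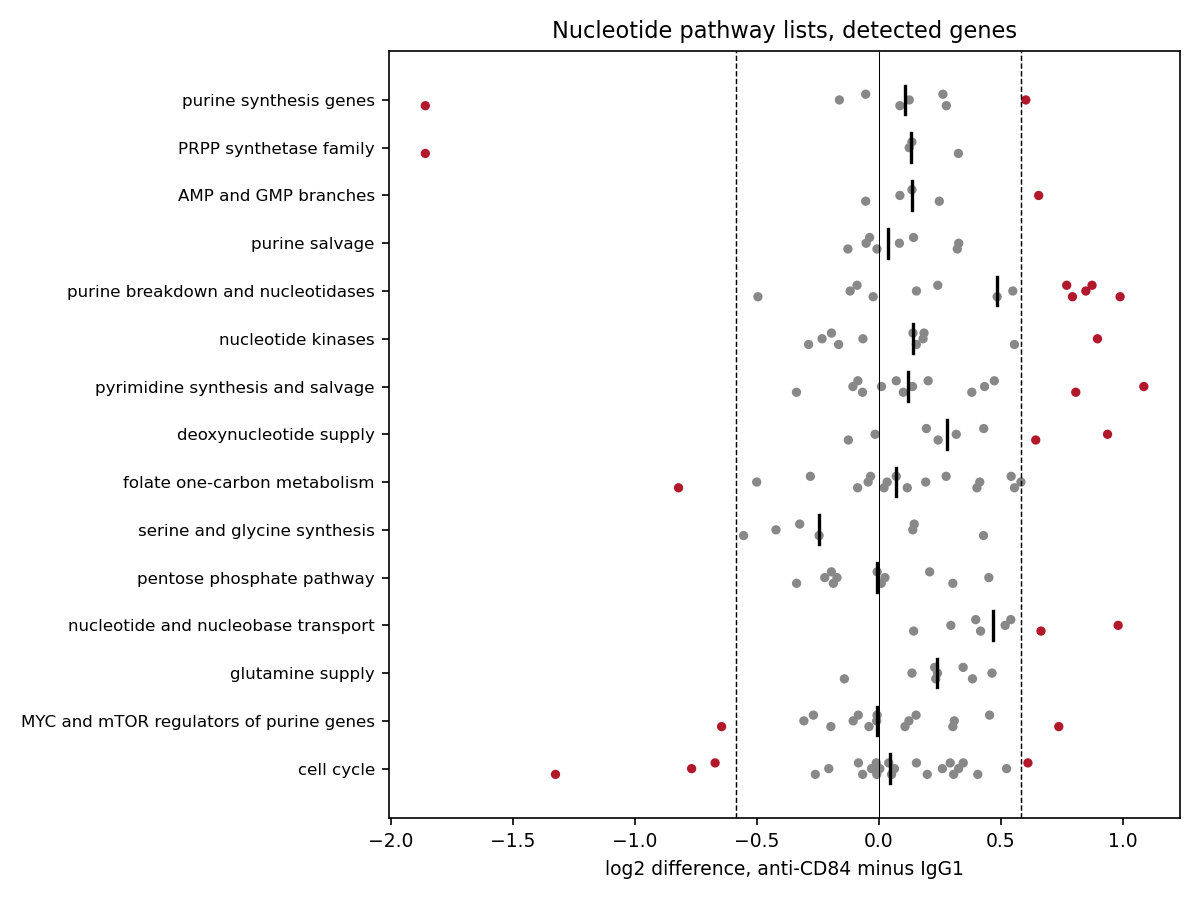
The log2 difference (anti-CD84 minus IgG1) of each detected gene in the 15 pathway lists, with list medians as black bars, dashed lines at 1.5-fold and genes past them in red. Purine breakdown and nucleotide transport have the medians farthest to the right (0.49 for breakdown, 0.47 for transport), serine synthesis the one farthest to the left (-0.24), and Prps1 is the red point at the far left of its 2 lists.

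Of 8 detected carriers of nucleotides, nucleobases and related compounds 2 were at least 1.5-fold higher and 0 lower, with a median of 0.47. Of all detected genes 10.7% were that much higher, and 1 carrier was left past 1.5-fold with the difference centred, Slc43a3. Slc43a3, a transporter of purine bases, was at 8.48 in anti-CD84 cells and 7.50 in IgG1 cells, 1.97-fold higher. Slc25a42, a mitochondrial carrier of coenzyme A and adenine nucleotides, differed by 0.67, and Slc23a2, which carries vitamin C although its family also holds base transporters, by 0.54. Pyrimidine synthesis and salvage had 2 of 14 detected genes at least 1.5-fold higher (14.3%, near the 10.7% of all detected genes) and 0 lower, with a median of 0.12. Uck1, a uridine and cytidine kinase, was at 5.98 in anti-CD84 cells and 4.89 in IgG1 cells, and Dhodh, the mitochondrial dihydroorotate dehydrogenase, at 6.95 in anti-CD84 cells and 6.14 in IgG1 cells, while Ctps2, a CTP synthase, differed by 0.47. Uck1 was just above the detection level in IgG1 cells.

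Among 8 detected genes of deoxynucleotide supply 2 were at least 1.5-fold higher (beside 10.7% of all detected genes) and 0 lower, with a median of 0.28. With the difference centred the count was 1, since Rrm2b was no longer past 1.5-fold. Glrx, the glutaredoxin that can reduce ribonucleotide reductase, was at 8.03 in anti-CD84 cells and 7.09 in IgG1 cells, and Rrm2b, the p53-inducible small subunit of the reductase, at 7.60 in anti-CD84 cells and 6.95 in IgG1 cells. Rrm2, the small subunit of dividing cells, differed by 0.43. Of 11 detected nucleotide kinases 1 was higher, the mitochondrial UMP and CMP kinase Cmpk2 at 7.14 in anti-CD84 cells and 6.24 in IgG1 cells, and 0 were lower. Dtymk, the thymidylate kinase, differed by 0.56 and Nme4, a mitochondrial nucleoside diphosphate kinase, by -0.29.

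The counts for the suppliers of carbon and nitrogen of the purine ring stand beside 10.7% of all detected genes at least 1.5-fold higher and 6.4% lower. In folate one-carbon metabolism 1 of 17 detected genes was lower, Aldh1l1, which consumes formyl-tetrahydrofolate, at 4.98 in anti-CD84 cells and 5.80 in IgG1 cells, and 0 were higher. With the difference centred 2 were lower, the second being Folr1, a folate receptor with a value below the detection level in anti-CD84 cells. Counted from that level, Folr1 was at least 1.12-fold lower. Ftcd, of histidine breakdown, was below the detection level in IgG1 cells and at least 1.15-fold higher in anti-CD84 cells, where "at least" counts the fold from that level. Ggh, the lysosomal folate hydrolase, differed by 0.56. Of 7 detected genes of serine and glycine synthesis 0 were past 1.5-fold, with Psph, the phosphatase that forms serine, at -0.55 and the serine carrier Slc1a4 at 0.43. With the difference centred 1 of the 7 was past 1.5-fold, in the lower direction. Of 8 detected genes of glutamine supply 0 were past 1.5-fold, with Glul, the glutamine synthetase, at 0.46 and Asns, which spends glutamine to make asparagine, at 0.38.

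Of 16 detected genes listed as MYC, mTOR and related regulators, 1 was at least 1.5-fold higher and 1 lower as measured. Whether each acts on purine genes in these cells was not tested. Of all detected genes 10.7% were that much higher and 6.4% lower. The lower regulator, Mycn, did not reach 1.5-fold when counted from the detection level. Mtor, the growth kinase, was at 8.10 in anti-CD84 cells and 7.36 in IgG1 cells. Mycn was below the detection level in anti-CD84 cells and at least 1.16-fold lower there, and Mlx, a partner of sugar-sensing factors, differed by 0.45. Myc itself was at 10.32 in anti-CD84 cells and 10.36 in IgG1 cells and is named after its value was seen. In the cell cycle list 3 of 24 detected genes were at least 1.5-fold lower (12.5%, beside 6.4% of all detected genes) and 1 higher (4.17%, beside 10.7%), with a median of 0.05. With the difference centred these counts were 3 lower and 0 higher. The cell cycle list was chosen with earlier results of these data known, so its shares depend on that choice. The lowest were Gmnn, the replication inhibitor geminin, at 5.20 in anti-CD84 cells and 6.52 in IgG1 cells, Tipin, a fork protection factor, at 7.70 in anti-CD84 cells and 8.47 in IgG1 cells, and Chaf1a, a histone chaperone subunit, at 7.28 in anti-CD84 cells and 7.95 in IgG1 cells. The part of cell cycling in the Prps1 difference was not tested.

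The neighbours of Prps1 on the X chromosome went in both directions. Of the 5 protein-coding genes on each side 6 were detected. By the values as measured 2 of the 6 were at least 1.5-fold lower and 1 at least 1.5-fold higher, beside 6.4% and 10.7% of all detected genes, but 1 of the 2 lower genes was below the detection level in anti-CD84 cells and reaches 1.5-fold no longer when counted from that level. Tsc22d3, the glucocorticoid-induced leucine zipper gene and the next gene on one side, was at 6.07 in anti-CD84 cells and 6.12 in IgG1 cells. Frmpd3, next on the other side, was not detected, at 3.58 in anti-CD84 cells and 3.72 in IgG1 cells. Farther out, Morc4, an ATPase gene of the MORC family, was 2.13-fold lower, at 6.64 in anti-CD84 cells and 7.73 in IgG1 cells, and Dnaaf6b, the gene with a value below the level, was at least 1.46-fold lower. Mid2, a ubiquitin ligase gene on the other side, was 1.52-fold higher, at 8.41 in anti-CD84 cells and 7.80 in IgG1 cells. Rbm41 and Psmd10 differed by -0.25 and 0.11.

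**Figure D4:**
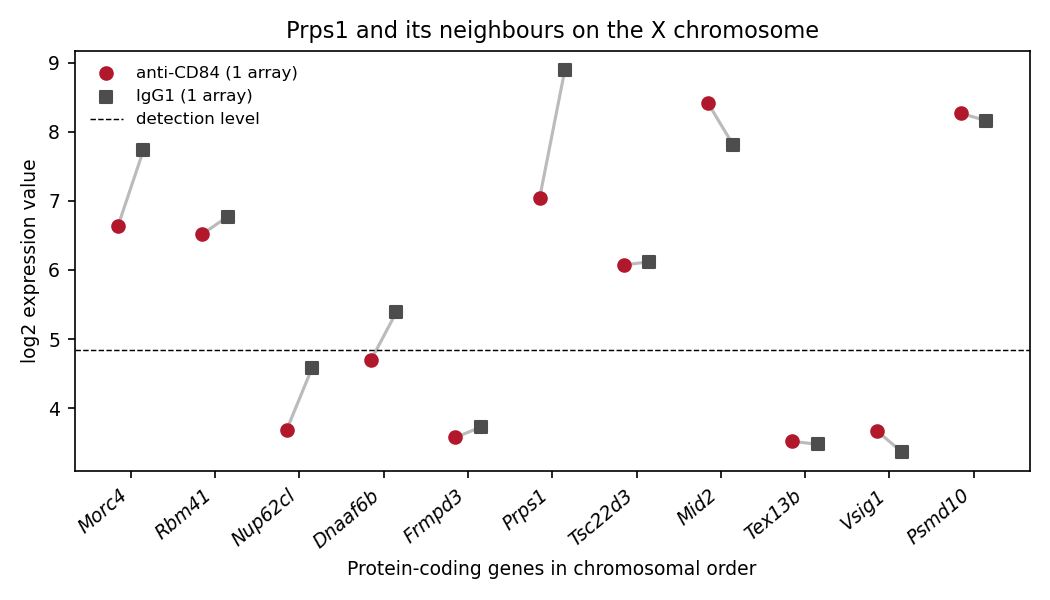
The log2 expression values of Prps1 and the 5 protein-coding genes on each side of it in chromosomal order, with anti-CD84 as a red circle and IgG1 as a grey square, 1 array each, and the detection level of 4.84 dashed. Prps1 and Morc4 have the longest lines downward, Mid2 points the other way, and 4 neighbours lie under the detection level on both arrays.

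The 5 named genes whose pair of values lay nearest to that of Prps1, by distance over the 2 log2 values, were Fra10ac1, Atp5e, Armcx3, Dpep2 and Mir3095, at distances from 0.59 to 0.68. Their differences were smaller than that of Prps1, with Fra10ac1 at 7.47 in anti-CD84 cells and 8.49 in IgG1 cells, 2.03-fold lower, and Dpep2 at 6.99 in anti-CD84 cells and 8.22 in IgG1 cells, 2.34-fold lower. With 2 arrays this likeness rests on 2 values per gene.

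As a check of the labelled cell type, 16 of 18 stromal markers were detected. Of these 4 were at least 1.5-fold higher in anti-CD84 cells (beside 10.7% of all detected genes), 0 were lower and 12 lay within that range, with a median of 0.17. Cxcl12, Pdgfra and Dcn had the largest differences, at 1.10, 0.92 and 0.76. Of 14 measured haematopoietic markers 4 were detected, with highest values of 5.01 in anti-CD84 cells and 5.07 in IgG1 cells, close to the detection level, and Ptprc, the marker shared by white blood cells, lay below it on both arrays. One of the 4, Csf1r, was 1.65-fold higher in anti-CD84 cells as measured, beside 10.7% of all detected genes at least 1.5-fold higher. It was below the detection level in IgG1 cells and at least 1.01-fold higher when counted from that level. The summed log2 values of the 14 measured haematopoietic markers were 59.3 in anti-CD84 cells and 61.8 in IgG1 cells. Of the other lists 3 of 8 endothelial, 3 of 7 adipocyte and 1 of 5 osteoblast markers were detected. As measured 2 of the 3 endothelial markers were at least 1.5-fold lower, beside 6.4% of all detected genes. Both were below the detection level in anti-CD84 cells. Counted from that level, Cdh5 was at least 1.65-fold lower and Pecam1 at least 1.11-fold lower. The adipocyte marker Pparg was at 7.81 in anti-CD84 cells and 8.06 in IgG1 cells. The part of other cell types in the Prps1 difference was not tested.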

How the data were processed

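RNA of M210B4 cells was measured on 1 array per treatment. Each treatment used 200000 cells at 37 °C and 5% CO2, and the biotin labelling started from 200 ng of total RNA, per the labels' protocols. The deposited table holds 1 log2 value for each probe set on each array. RMA and Partek made these values, per the submitters' processing notes. Their versions and settings, and the genome build, were not given in the sources used here. That the scale is log2 was inferred from the values (1.82 to 13.8, medians 4.87 for anti-CD84 and 4.88 for IgG1). RMA tends to compress the differences of dim probe sets.

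Of 41345 probe sets 23521 have 1 symbol in GEO's platform annotation, 1814 several and 16010 none. Among the pathway genes named, Ampd2, Rrm2, Slc23a2 and Glul each had 2 single-symbol probe sets, and only the brighter is given. The gene IDs of all 8 measured genes matched RefSeq (GRCm38.p6), whose coordinates are those of genes and not of probes. With 1 array per group no test was possible, and the number of arrays limits the precision. The counting code was run on simulated data with 200 genes shifted well past 1.5-fold. That run checks the code only and says nothing about the measured differences. The members and the 15 pathway and 5 marker lists were chosen with earlier results of these data known. Named genes were all members and every measured gene of the PRPP synthetase and branch lists. From each other pathway list and the stromal markers, the 3 largest absolute differences were named (2 where none passed 1.5-fold). The 5 genes nearest to Prps1 in value were named too. Chromosomal neighbours were named from the 5 on each side of Prps1 and within 2000 bases of the other measured genes. The remaining names were chosen after their values were seen. The software was limma 3.58.1 in R 4.3.3, and pandas 2.3.3, numpy 2.4.6 and matplotlib 3.10.9 in Python 3.11.15.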

Additional observations from a re-analysis of the deposited data

How the results depend on the processing

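The 9 alternatives comprised 3 scalings, 3 detection filters, a floor at the detection level and 2 rules for probe sets. The Prps1 difference stayed between -1.98 and -1.86, and its distance from Prps2 between -1.999 and -1.98. The count of members at least 1.5-fold higher, 1 as reported (Paics), was 0 with the difference centred, with a loess curve removed (limma, span 0.4) and after quantile normalization, and 1 member (Prps1) was lower throughout these 9. The median of the measured members lay between -0.02 and 0.11, and Prps2 was at -0.002 after the loess correction. Of all genes, 850 were at least 1.5-fold lower and 1427 higher as reported. The lower count was 1575 with no detection filter, 457 with both arrays above the level and 548 with values floored at it. At a stricter level of 6.88 these counts were 219 lower and 742 higher. With the difference centred they were 1128 lower and 1024 higher. Of the 156 detected genes in the pathway lists 22 were past 1.5-fold, 16 of them higher and 6 lower as measured. Among all detected genes 10.7% were that much higher and 6.4% that much lower, so the pathway counts are not above that background. For the pathway lists a floor at the detection level left 5 lower, as did requiring both arrays above it. Centring gave 11 higher and 8 lower, beside 7.71% and 8.49% of all detected genes. No paired analysis was possible because each group holds 1 array, and for the same reason no replicate could be left out. Mycn, Ftcd, Folr1, Dnaaf6b, Thy1, Csf1r, Cdh5 and Pecam1 were below the detection level on 1 array and have only a bound, and Prps1 rests on 1 probe set.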
